A study of Mus musculus with 22 samples.

Results

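The genes described are the nuclear-encoded subunits of the mitochondrial respiratory chain and of ATP synthase, followed in ventricular cardiomyocytes of mice that lack CASK, SAP97 or dystrophin. Members were found by symbol, as names that start with Nduf and one of the letters a, b, c, s or v, with Uqcr, with Cox and a number of the complex IV series, or with Atp5, together with Sdha to Sdhd and Cyc1, processed pseudogenes ending in -ps and a number left out. A gene also had to average at least 10 read pairs per library in each of the 3 knockout comparisons. This gave 77 genes of the 46813 listed in all 3 comparisons, of which 33 carry names of complex I, 4 of complex II, 9 of complex III, 14 of complex IV and 17 of complex V. Cox7b2 and Cox8c matched by name and fell under the minimum, and 7 further subunit genes (Atp5o, Cox5b, Cox7c, Ndufa11, Ndufb4, Ndufc2 and Ndufs5) carried no symbol in at least 1 comparison, so their values are given but they are not counted as members. The names also bring in Atp5l2-ps, a pseudogene by its name, and Atp5s and Atp5sl, which are not core subunits of the synthase, while Ndufa4 is listed with complex I by name although its protein is now assigned to complex IV.

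RNA was sequenced from ventricular cardiomyocytes that were released with collagenase from Langendorff-perfused hearts of male mice. The CASK line compared 3 CASK KO mice (MHC-Cre with CASK fl/fl, 10.1 to 11.3 weeks old) with 3 CASK control mice that carry MHC-Cre alone (11 to 12.7 weeks), so that Cre is present on both sides. In the SAP97 line, 3 SAP97 KO mice (MHC-Cre with SAP97 fl/fl, 10.7 to 13 weeks) were set against 3 SAP97 control mice that are SAP97 fl/fl without Cre (10.6 to 13 weeks), so that Cre and the loss of SAP97 cannot be told apart there. The methods of the paper call these controls floxed and Cre-negative, but its table of read metrics lists them as WT+Cre. Both of these lines are on a mixed background, and the alpha-MHC promoter limits Cre to cardiac myocytes. The MDX-5CV line, which lacks dystrophin in all cells, is represented by MDX replicates 2 to 5 (10.9 weeks, replicate 4 at 17.7 weeks) on C57Bl/6Ros, and by 5 MDX control mice (10.9 to 14.7 weeks) of wild type on C57Bl/6J or C57Bl/6. Replicate 5 of MDX and of MDX control came from a mixed, backcrossed stock, and MDX replicate 1 was left out by the study after quality control, which left 21 libraries, each from a separate mouse. The paper states that sequencing was done in 2 rounds, and calls a batch effect the likely source of the variation among MDX controls. It does not name the libraries of each round, so no term for the round was fitted. CASK and SAP97 are scaffold proteins of the membrane-associated guanylate kinase family, and dystrophin links the cytoskeleton of the muscle cell to the matrix outside it.

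The respiratory chain passes electrons from NADH (complex I) and succinate (complex II) over ubiquinone to complex III, and over cytochrome c to complex IV, which reduces oxygen. Protons pumped by complexes I, III and IV drive ATP synthase, called complex V. A few core subunits are encoded in mitochondrial DNA, and all others are encoded in the nucleus, translated in the cytosol and imported, so that 2 genomes must be expressed side by side. Several subunits of complex IV exist as a form specific to heart and skeletal muscle (Cox6a2, Cox7a1, Cox8b) and a form found in most tissues (Cox6a1, Cox7a2, Cox8a). The heart relies on this chain for most of its ATP.

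Depth was 24235276 to 42159185 read pairs in genes per library, after 2.45 to 12.6% of all pairs had fallen in no annotated exon and 11.5 to 23.1% had been ambiguous. Levels are given in CPM, the read pairs of a gene relative to a library total that TMM scaling adjusts for each library. CPM are therefore not plain shares of counts. The targeted genes were lower in the mutants that the labels name. In the mutants, Cask, Dlg1 (which encodes SAP97) and Dmd lay at 0.595 to 2.38, 11 to 13.6 and 76.4 to 126 CPM. In their controls they lay at 8.75 to 9.83, 55.2 to 66.2 and 235 to 328 CPM. The edgeR adjusted p were 0.148, 0.000933 and 0.068, so that of the 3 only Dlg1 was called. The 8 cardiomyocyte markers summed to 40539 to 58314 CPM over the libraries. Endothelial, fibroblast, mural, leukocyte and erythroid markers summed to 124 to 528, 86 to 354, 136 to 564, 20.6 to 70.3 and 1.35 to 41.5 CPM, and Cd3e, Cd79a, Itgam and Tagln were at 0 in 16, 10, 8 and 2 of the libraries. MDX control 3 stood apart, with 25.3% of its counts from mitochondrially encoded messengers, against 7.53 to 14.1% in the other 20 libraries. Bulk RNA cannot tell apart fewer cells of a type and less RNA per cell.

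In MDX control hearts, levels per kilobase of exon (CPM per kb) spread over more than 3 orders of magnitude among the 77 genes. Over all 5 mice the 3 highest means were those of the muscle forms Cox6a2 (3071 ± 3607 CPM per kb, SD, n = 5), Cox7a1 (2770.1 ± 1487) and Cox8b (1675 ± 848). The place of Cox6a2 rests on MDX control 3, where it lay at 6405 CPM, and without that library, a setting chosen after the data were seen, its mean was 1484 ± 748 CPM per kb (SD, n = 4), below Cox7a1 (2735 ± 1715), Atp5k, a small membrane subunit of ATP synthase (1809.9 ± 1345), and Cox8b (1682 ± 979). The 3 lowest were Cox6b2, best known from testis (1.44 CPM per kb), Cox4i2, an isoform best known from lung (2.22), and Ndufb2 (2.88), and without MDX control 3 Ndufa4l2 (2.57) took the place of Ndufb2 (3.32). By complex, the median level was 185.6 CPM per kb in complex I, 241.7 in complex II, 325.5 in complex III, 458.8 in complex IV and 107.0 in complex V. The catalytic subunits of the F1 part of ATP synthase, Atp5a1 and Atp5b, which form its alpha and beta subunits, had 1054 and 856 CPM per kb, and Atp5c1, the central stalk subunit gamma, had 429.8. Within complex II, the flavoprotein Sdha, the iron-sulfur protein Sdhb and the membrane anchors Sdhc and Sdhd lay at 258, 275, 104 and 225 CPM per kb. The core subunits at the matrix arm of complex I, Ndufv1, Ndufv2, Ndufs1, Ndufs3, Ndufs7 and Ndufs8 among them, included Ndufs3 at 39.8 and Ndufv1 at 245 CPM per kb. The length used is that of all annotated exons, so that a gene with a long, rarely used exon appears lower than its main transcript is.

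The summed level of the 77 genes ranged from 21888 CPM in CASK KO 1 to 59823 CPM in MDX control 5. These extremes rest on the TMM scaling. As a share of counts, without that scaling, the sum ran from 2.37% in SAP97 KO 1 to 4.73% in CASK KO 2. The highest value was 2.73 times the lowest in CPM and 1.99 times as a share of counts. CASK KO libraries summed to 21888, 49159 and 38191 CPM, against 26612, 33502 and 40906 CPM in CASK controls. In SAP97 KO libraries the sums were 26259, 33527 and 26055 CPM, against 38814, 33063 and 45181 CPM in SAP97 controls. In CPM, only the highest SAP97 KO library lay above the lowest SAP97 control. As a share of counts the SAP97 KO libraries held 2.37, 3.31 and 2.93%. The SAP97 controls held 3.62, 3.35 and 4.57%, without overlap. MDX libraries summed to 36991, 40996, 28533 and 46547 CPM. MDX controls summed to 29278, 39143, 32846, 29261 and 59823 CPM, with MDX control 5 far above the rest on this scale. As a share of counts MDX control 5 held 4.18%, below MDX 3 at 4.28%. Complex V made up 34.8% of the sum in the median library, complex I 26.8%, complex IV 20.1%, complex III 12.2% and complex II 6.22%. In MDX control 3 complex IV reached 35.2%, the highest share of any library.

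**Figure D1:**
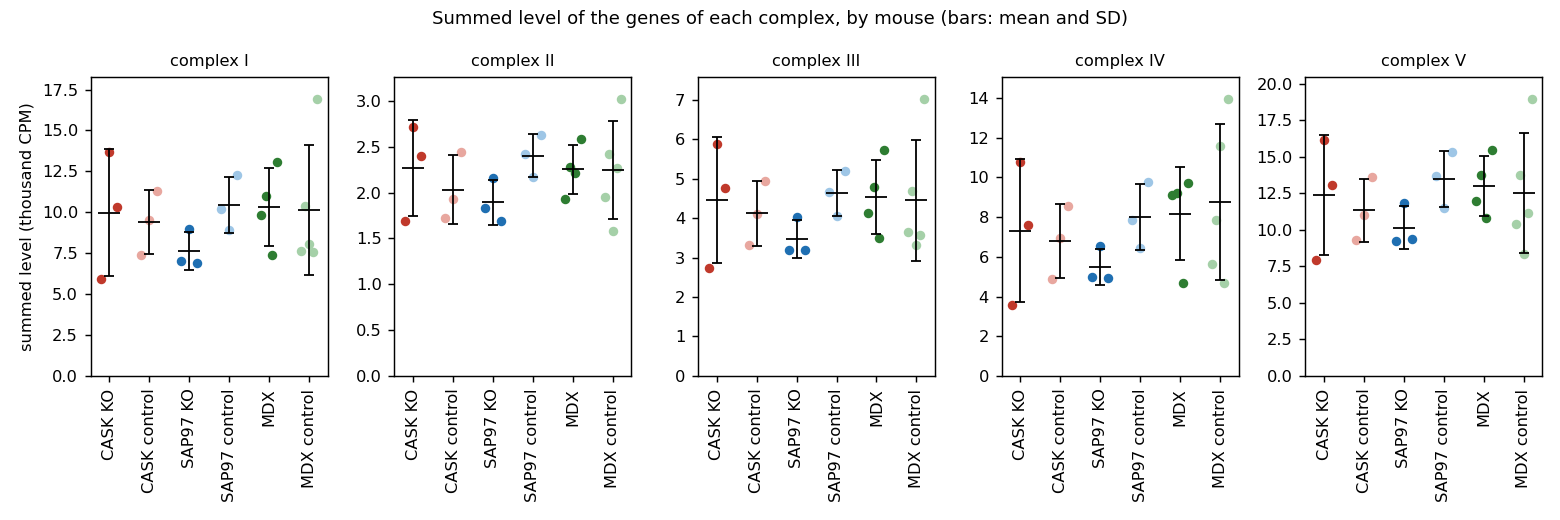
Summed CPM, in the unit given on the axis, of the genes of complexes I to V, 1 point per mouse and 6 groups along each horizontal axis, with bars for the mean and SD. In complexes II and III the 3 SAP97 KO points lie below the 3 SAP97 control points by a narrow gap. The CASK KO and MDX points overlap their controls in all 5 complexes.

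The genes moved together from mouse to mouse. This was followed over 75 members whose counts were stable between the annotation releases of the comparisons (Uqcrc2 and Atp5l were not). CASK KO 1 had 0 genes above their median CPM over the 21 libraries, and MDX control 5 had 74. Both counts rest on the TMM scaling. The correlation of a gene's log2 CPM with the mean of the other members had a median of 0.85 over the 21 libraries, and exceeded 0.8 for 42 of 75 genes. Complex I genes had a median of 0.89 and complex IV genes of 0.76. Below 0.5 were 6 genes, Ndufa4l2, Cox5a, Cox4i2, Cox6a1, Cox6a2 and Cox6b2, of which 5 belong to complex IV. These correlations describe 21 libraries that share a scaling, and the genes of each library are not independent.

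**Figure D2:**
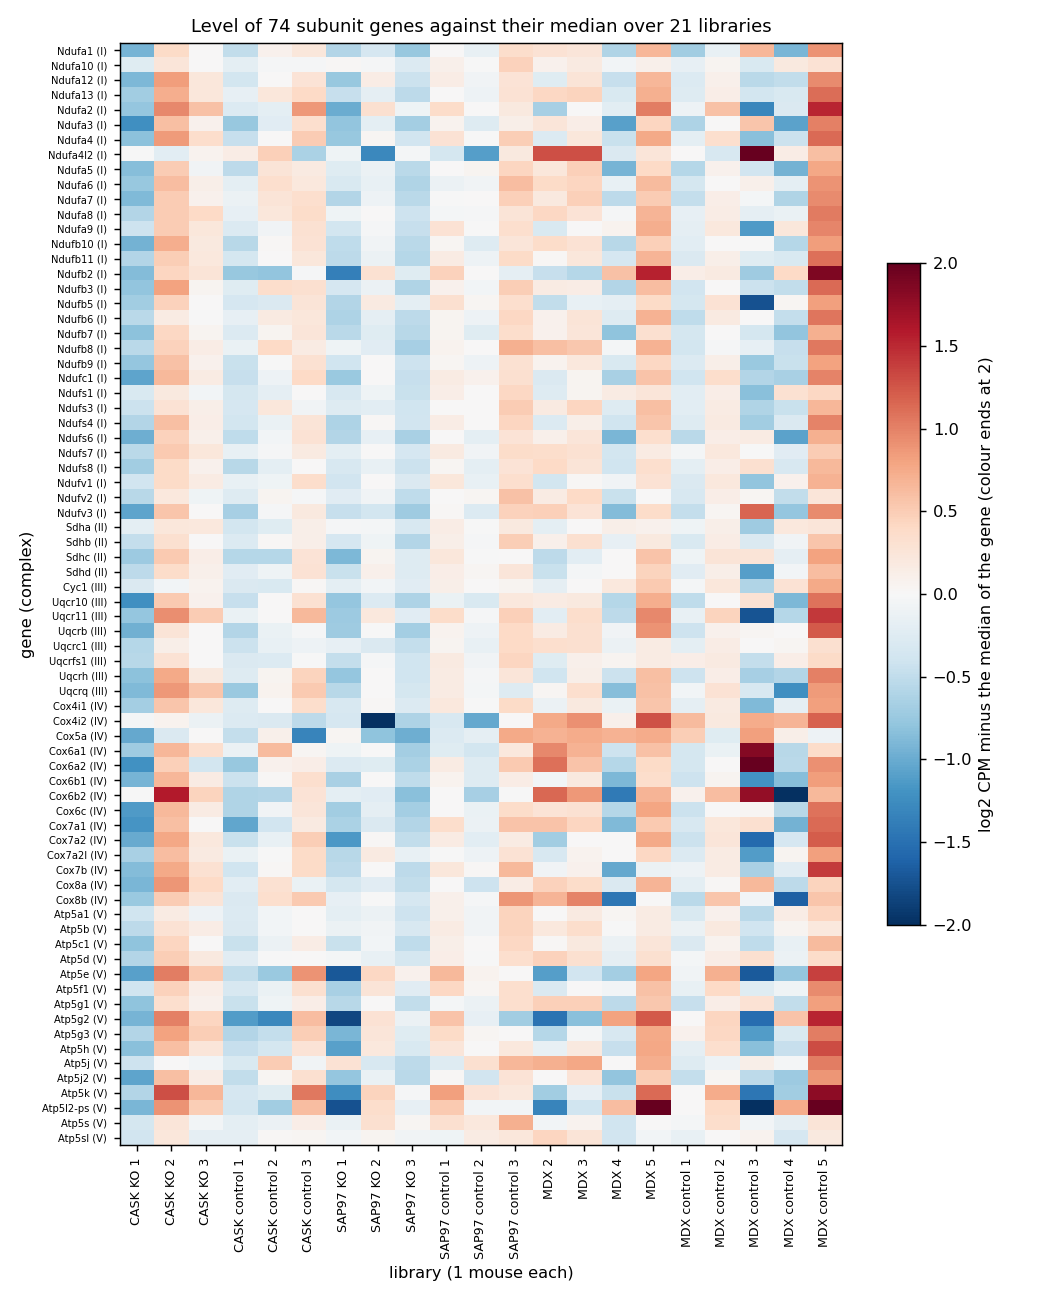
Log2 CPM of 74 genes (rows, by complex) in 21 libraries (columns), as the difference from the gene's median, with red above and blue below it and the colour ending at a difference of 2. CASK KO 1 is blue and MDX control 5 red in nearly every row, and MDX control 3 is red for Cox6a1, Cox6a2, Cox6b2 and Ndufa4l2 where many other rows are blue. The CPM are TMM-scaled, and shares of counts rank the libraries otherwise.

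The members are spread over 19 chromosomes. RefSeq gave 63 promoter windows for 58 of the 77 members, each from 250 bases before to 50 after the start, on GRCm38.p6. Motifs of 4 factors or factor families known to act on respiratory genes were searched on both strands, NRF1 as GCGCANGCG, the ETS sites bound by GABP as CCGGAAG, the estrogen-related receptor site as TCAAGGTCA and YY1 as AANATGGC. NRF1 letters were found in 17 windows (27.0%, against 6.25% of all 32851 windows), ETS letters in 16 (25.4%, against 8.86%), YY1 letters in 16 (25.4%, against 6.05%) and the receptor site in 2 (3.17%, against 0.423%). At least 1 of the 4 motifs was in 39 of the 63 windows (61.9%), against 19.0% of all windows, and these matches are a description of letters, since no binding was measured. The 4 windows below were picked after the matches were known, and show the muscle isoform Cox7a1, which has none of the letters, beside the ubiquitous isoform Cox6a1, the complex II anchor Sdhd and the complex I iron-sulfur subunit Ndufs8. Cox7a2, the ubiquitous partner of Cox7a1, had none of the letters either, and Cox6a2, the muscle partner of Cox6a1, had no window. In the Cox8 family the muscle form Cox8b had none, and the ubiquitous form Cox8a had ETS letters. Capitals mark the matched letters, 5′ to 3′ on the gene's strand, and in Cox6a1 a pair of overlapping NRF1 matches forms the first run of capitals.
Cox7a1 (chr7:30183921-30184220, + strand): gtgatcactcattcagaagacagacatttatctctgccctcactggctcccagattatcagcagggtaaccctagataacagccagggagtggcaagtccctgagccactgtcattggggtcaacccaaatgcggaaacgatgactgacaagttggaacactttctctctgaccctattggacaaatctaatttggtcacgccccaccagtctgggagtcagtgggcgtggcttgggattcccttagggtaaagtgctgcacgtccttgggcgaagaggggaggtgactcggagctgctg
Cox6a1 (chr5:115348909-115349208, - strand): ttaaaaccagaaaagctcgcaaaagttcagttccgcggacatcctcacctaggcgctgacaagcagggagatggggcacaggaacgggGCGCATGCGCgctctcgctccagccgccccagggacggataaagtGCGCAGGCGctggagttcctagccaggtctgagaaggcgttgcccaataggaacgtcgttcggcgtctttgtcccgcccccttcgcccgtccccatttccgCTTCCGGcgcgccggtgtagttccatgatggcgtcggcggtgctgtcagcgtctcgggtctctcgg
Sdhd (chr9:50603800-50604099, - strand): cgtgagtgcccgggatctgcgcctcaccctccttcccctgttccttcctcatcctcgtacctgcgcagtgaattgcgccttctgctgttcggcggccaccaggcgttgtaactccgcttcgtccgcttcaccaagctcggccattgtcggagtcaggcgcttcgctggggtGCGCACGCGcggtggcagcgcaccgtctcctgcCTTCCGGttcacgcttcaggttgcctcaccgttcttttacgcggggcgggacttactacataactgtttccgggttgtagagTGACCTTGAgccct
Ndufs8 (chr19:3912725-3913024, - strand): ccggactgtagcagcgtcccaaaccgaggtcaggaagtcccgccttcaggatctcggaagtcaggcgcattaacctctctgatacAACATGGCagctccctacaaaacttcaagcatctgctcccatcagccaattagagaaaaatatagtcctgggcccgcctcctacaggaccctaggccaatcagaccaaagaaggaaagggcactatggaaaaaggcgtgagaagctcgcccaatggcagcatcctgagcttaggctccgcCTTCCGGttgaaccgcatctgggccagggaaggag

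In SAP97 KO cardiomyocytes, 76 of the 77 genes lay below SAP97 control by edgeR's log2 fold change and 1, Ndufa4l2, lay at 0.01, where 45.2% of all 14722 genes tested were lower. The median log2 fold change was -0.41, against 0.03 over all genes tested. Complexes I to V had medians of -0.44, -0.32, -0.43, -0.43 and -0.37. None of the 77 was called at an adjusted p of 0.01 (edgeR's quasi-likelihood test with Benjamini-Hochberg adjustment), where 3 of all genes (0.0204%) were called, and the smallest adjusted p of a member was 0.479. At an unadjusted p under 0.05, 31 members were lower and 0 higher, where the share of all genes that were lower at that p was 3.28%. All 3 SAP97 KO values lay below all 3 SAP97 control values for 27 members, against 6.73% of all genes tested.

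**Figure D3:**
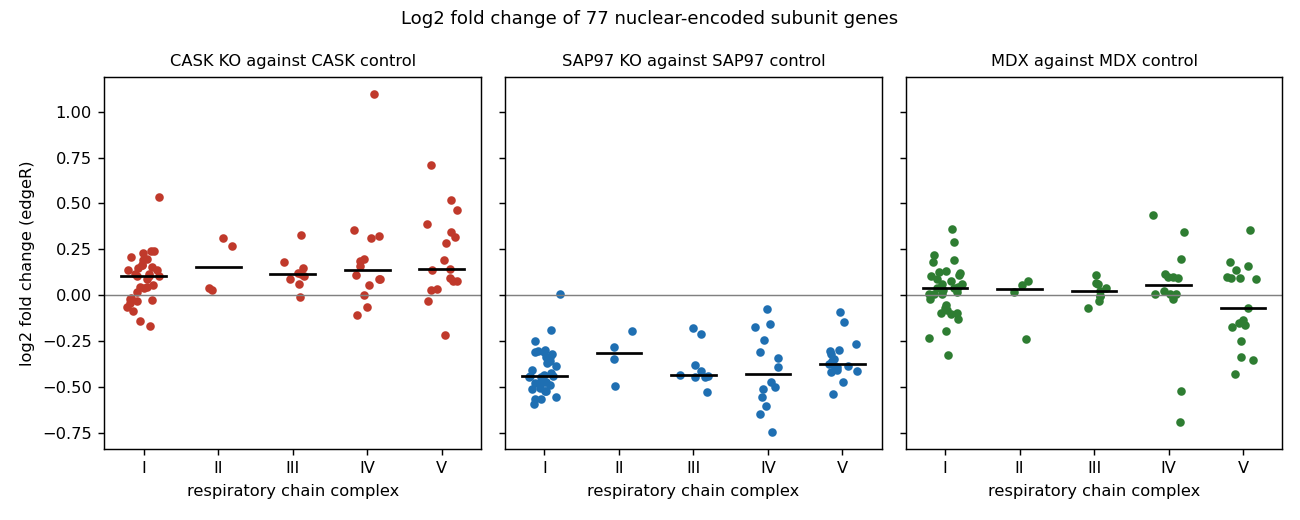
Log2 fold change (edgeR, vertical axis) of each of the 77 genes by complex (horizontal axis) in CASK KO, SAP97 KO and MDX against their controls, with black bars for the medians. The SAP97 KO points lie below 0 in every complex except for 1 complex I gene, with medians of -0.44 to -0.32, while CASK KO and MDX points spread on both sides of 0.

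The muscle isoform Cox7a1 (chr7:30184144-30186078, GRCm38), whose promoter is printed above, had the smallest p of the 77. It lay at 809, 1022 and 835 CPM in SAP97 KO, against 1587, 1156 and 1862 CPM in SAP97 control (log2 fold change -0.75, SE 0.19, edgeR adjusted p = 0.479). Its groups did not overlap, and the KO mean was 57.9% of the control mean. Cox7b, a small subunit of complex IV, was at 434, 627 and 438 CPM in SAP97 KO, against 729, 639 and 978 CPM in SAP97 control (log2 fold change -0.61, SE 0.21). Here the highest KO value lay just under the lowest control value. The muscle isoforms Cox6a2 and Cox8b had log2 fold changes of -0.51 and -0.50, and their ubiquitous partners Cox6a1 and Cox8a had -0.08 and -0.25. Cox7a2, the ubiquitous partner of Cox7a1, lay at 217, 488 and 343 CPM in SAP97 KO, against 538, 418 and 541 CPM in SAP97 control (log2 fold change -0.47), near Cox6a2 and Cox8b, and its groups overlapped. In complex IV, 14 of 14 genes were lower and 4 were lower at an unadjusted p under 0.05 (Cox7a1, Cox7b, Cox6a2 and Cox6c).

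Complex I held 20 of the 31 genes at that p. Ndufa1 (chrX:37187588-37191163), an X-linked accessory subunit needed for assembly, lay at 84, 100.1 and 74.1 CPM in SAP97 KO, against 126, 113 and 160.1 CPM in SAP97 control (log2 fold change -0.59, SE 0.17, edgeR adjusted p = 0.537). The accessory subunit Ndufb6 was at 37.6, 50.9 and 40.1 CPM in SAP97 KO, against 59.9, 53.7 and 76.7 CPM in SAP97 control. Ndufv3, an accessory subunit at the NADH end of the enzyme, was at 259, 276 and 216 CPM in SAP97 KO, against 361, 294 and 491 CPM in SAP97 control. In each of these 3 genes, every SAP97 KO value lay below every SAP97 control value. Among the subunits of the matrix arm, Ndufs1, Ndufs3 and Ndufv2 had log2 fold changes of -0.44, -0.44 and -0.45 without overlap, and Ndufv1, Ndufs7 and Ndufs8 had -0.32, -0.30 and -0.31 with overlap. Ndufa4l2, known from other cells as a subunit induced by low oxygen, lay at 2.11, 0.918 and 2.17 CPM in SAP97 KO, against 1.75, 1.04 and 2.55 CPM in SAP97 control, while its partner Ndufa4 had a log2 fold change of -0.56.

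Complex II as a sum lay at 1893 ± 242 CPM in SAP97 KO, against 2404 ± 230.2 CPM in SAP97 control (SD, n = 3 each), which is 78.7% of control, without overlap. Sdhb held the largest part of this difference, at 474, 561 and 398 CPM in SAP97 KO, against 644, 585 and 843 CPM in SAP97 control. Sdha, Sdhc and Sdhd had log2 fold changes of -0.20, -0.35 and -0.28. The complex III sum was 3474 ± 486 CPM in SAP97 KO, against 4638 ± 582 CPM in SAP97 control, also without overlap. Both gaps were narrow. SAP97 KO 2 and SAP97 control 2 had 2159 and 2168 CPM in complex II, and 4035 and 4042 CPM in complex III. Complex I overlapped as narrowly, with 8979 and 8913 CPM in the same libraries. As a share of counts, complexes I and IV did not overlap either, at 0.886 and 0.903%, and 0.644 and 0.652%, in these libraries. Within complex III, the Rieske iron-sulfur protein Uqcrfs1, the core proteins Uqcrc1 and Uqcrc2 and cytochrome c1 (Cyc1) had log2 fold changes of -0.44, -0.38, -0.41 and -0.18. For complex V, Atp5c1 alone of 17 genes was lower at an unadjusted p under 0.05, at 599, 786 and 572 CPM in SAP97 KO, against 885, 819 and 1085 CPM in SAP97 control. Atp5a1 and Atp5b had log2 fold changes of -0.37 and -0.32. The 7 subunit genes without a symbol in a comparison were lower too, at log2 fold changes of -0.61 (Ndufb4) to -0.29 (Ndufa11).

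The direction held in each setting tried, with 73 to 77 of the 77 genes lower, but the number of genes at an unadjusted p under 0.05 did not. It was 54 without SAP97 KO 2 (where 1022 of all 15255 genes were lower at that p) and 15 without SAP97 KO 1 (320 of 15200). It was 20 without SAP97 control 1 (340 of 15211) and 44 without SAP97 control 2 (798 of 15110). It was 3 without SAP97 KO 3 (230 of 14841) and 3 without SAP97 control 3 (195 of 15325). DESeq2 gave 77 of 77 lower, 50 at an unadjusted p under 0.05 (689 of all 27565 genes), and 0 called, with a smallest adjusted p of 0.0148. The share of read pairs in no annotated exon was 5.88, 9.06 and 11.9% in SAP97 KO, against 4.1, 10.9 and 3.06% in SAP97 control. With that share as a covariate, a fit added after the data were seen, 74 genes were lower with a median of -0.36, and 4 were lower at an unadjusted p under 0.05, against 1.9% of all genes. Its part in the result was not otherwise tested.

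Other mitochondrial lists lay below control in the same hearts. The mitochondrial ribosome had 77 of 77 genes lower (median -0.28, 14 at an unadjusted p under 0.05), the tricarboxylic acid cycle 17 of 17 (-0.30, 5) and the electron carriers between the complexes 16 of 16 (-0.28, 1). Of the carriers, Etfdh, which passes electrons of fatty acid oxidation to ubiquinone, and the ubiquinone synthesis genes Coq5 and Coq7 had log2 fold changes of -0.43, -0.29 and -0.35. Assembly factors were lower in 40 of 47 (median -0.19), with Coa6 (complex IV), Ndufaf1 (complex I) and Uqcc2 (complex III) at -0.49, -0.44 and -0.53. The 17 regulators of mitochondrial genes had 9 lower and 8 higher, with a median of -0.05, and Ppargc1b, Tfam and Gabpa at 0.44, -0.27 and -0.19. Mitochondrially encoded messengers were lower in 10 of 13 with a median of -0.08. Outside mitochondria, cytosolic ribosomal protein genes were lower in 56 of 75 (median -0.15), cardiomyocyte markers in 6 of 8 (-0.23, with Tnni3, Myl2 and Pln lower at an unadjusted p under 0.05), and nuclear long non-coding RNAs higher in 5 of 6 (0.54). Of the markers of other cell types, fibroblast markers were higher in 6 of 8 (summed 89.7 to 186 CPM in SAP97 KO, against 86 to 152 CPM in SAP97 control), mural markers in 4 of 6 (200.2 to 264 CPM in SAP97 KO, against 136 to 228 CPM in SAP97 control), erythroid markers in 4 of 4 (4.38 to 7.17 CPM in SAP97 KO, against 2.12 to 5.5 CPM in SAP97 control) and endothelial markers in 3 of 8, and their part in the members' level was not tested. No gene of these lists was called by edgeR in SAP97 KO.

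In CASK KO cardiomyocytes the genes spread around their controls, with 62 higher and 15 lower, where 48% of all 14963 genes tested were lower. The median log2 fold change was 0.11, against 0.01 over all genes. No gene at all was called by edgeR at an adjusted p of 0.01 (0%), with 678 genes higher and 645 lower at an unadjusted p under 0.05, and DESeq2 called 116 genes, none of them a member. With the replicate number as a block, since CASK libraries of the same number deviated together, edgeR called 11 genes (0.0735%), again no member, and 54 of 77 members were higher, with a median of 0.06. A single member, Cox6b2, was higher at an unadjusted p under 0.05, where 4.53% of all genes were. Cox6b2 lay at 1.03, 3.12 and 1.41 CPM in CASK KO, against 0.684, 0.687 and 1.25 CPM in CASK control (log2 fold change 1.097, SE 0.46, edgeR adjusted p = 0.556), and its groups overlapped. Ndufb2, Cox4i2, Sdha and Atp5l came next by p, at log2 fold changes of 0.54, 0.35, 0.27 and 0.52. Higher in CASK KO with no overlap was 1 member, Cox4i2, against 6.03% of all genes tested, so that such members were not more frequent than other genes. Cox4i2 lay at 1.03, 1.11 and 0.973 CPM in CASK KO, against 0.872, 0.866 and 0.734 CPM in CASK control. These stand for 40, 42 and 36 read pairs, against 37, 29 and 27, so that its counts before scaling overlapped. All 5 complexes had medians between 0.10 and 0.15.

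The spread between CASK KO mice was larger than this difference. In TMM-scaled CPM, CASK KO 1 lay lowest of all 21 libraries for 34 members and CASK KO 2 was the highest of the CASK line. Cox7a1, for example, lay at 551, 1887 and 1250 CPM in CASK KO, against 607, 954 and 1412 CPM in CASK control, and Atp5b at 2507, 4408 and 4006 CPM in CASK KO, against 2952, 3468 and 3613 CPM in CASK control. Without CASK KO 1 the median was 0.36 and 75 members were higher, without CASK control 3 it was 0.25 with 70 higher, without CASK KO 2 it was -0.15 with 64 lower, and without CASK control 1 it was -0.03 with 42 lower. Pairs in no exon made up 12.6, 4.24 and 4.97% in CASK KO, against 5.73, 3.17 and 3.25% in CASK control. With that share as a covariate, added after the data were seen, 75 members were higher with a median of 0.45, 51 of them at an unadjusted p under 0.05 against 7.23% of all genes, and 0 were called. Nuclear long non-coding RNAs were higher in 6 of 6 (median 1.16), endothelial markers higher in 8 of 8 (0.34) and fibroblast markers lower in 7 of 8 (-0.28), and their part was not tested. Among the pathway lists, the assembly factors Cox17, a copper chaperone, and Timmdc1 (complex I) had log2 fold changes of 1.14 and 0.72, and Cox19 had -0.49. The carriers Etfb, Etfa and Etfdh, which feed electrons of fatty acid oxidation to ubiquinone, had 0.77, 0.34 and 0.29. The coactivator Ppargc1a, known to drive mitochondrial genes, had 0.54, Perm1, a muscle regulator downstream of it, 0.34, and Nfe2l2 -0.40. None of these was called, with edgeR adjusted p of 0.3 to 0.753.

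In MDX hearts 49 members were higher and 28 lower, where 51.8% of all 14994 genes tested were lower, with a median log2 fold change of 0.03 against -0.01 over all genes. edgeR called 0 genes (0%), with 192 higher and 216 lower at an unadjusted p under 0.05, none of them a member, and DESeq2 called 19, also none. Cox5a (chr9:57521274-57532426), a subunit of complex IV on the matrix side, was the member with the smallest p. It lay at 152, 157, 153 and 157 CPM in MDX, against 133, 80, 167, 102 and 87.6 CPM in MDX control (log2 fold change 0.44, SE 0.22). The MDX values were close together, and MDX control 3 lay above all of them. Cox7b was at 599.8, 665, 309 and 577 CPM in MDX, against 583, 703, 398, 534 and 1649 CPM in MDX control (log2 fold change -0.52, SE 0.39), and MDX control 5 alone lay far above the rest. Atp5j, a stalk subunit of ATP synthase, and the complex I subunits Ndufb8 and Ndufs3 had log2 fold changes of 0.36, 0.36 and 0.29. For Cox6a2, the MDX values of 1998, 1382, 625 and 1209 CPM overlapped the MDX control values of 723, 927, 6405, 637 and 1750 CPM (log2 fold change -0.69), with MDX control 3 far above all others.

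The MDX median changed sign with the mice. It was -0.11 without MDX 5, -0.07 without MDX control 1, -0.05 without MDX control 4, -0.01 without MDX control 3, 0.01 without MDX 3, 0.07 without MDX 2, 0.16 without MDX 4 and 0.28 without MDX control 5, and 0.12 when both backcrossed mice were left out. Mitochondrially encoded messengers were lower in 12 of 13 (median -0.49), and MDX control 3, with its 25.3%, lies in that comparison. The assembly factors Sdhaf3 and Coa4 had log2 fold changes of -0.31 and -0.31 and Coa6 of 0.24, and the ubiquinone genes Coq10b, Coq10a and Coq7 had -0.55, -0.25 and 0.23. The regulators Gabpa, Yy1 and Perm1 had 0.18, 0.19 and -0.13. No gene of these lists was called.

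The effects were set against each other in 1 model of the 21 libraries over 15634 genes and 75 members, whose levels could be compared across lines. The CASK KO effect exceeded the SAP97 KO effect in 74 of 75 members, where 52.1% of all genes had the higher CASK KO effect, with a median difference of 0.55 in log2 fold change. edgeR called 52 genes (0.333%) for that difference and none was a member, nor was any member at an unadjusted p under 0.05. With 1 library left out, the median difference ran from 0.25 (without CASK KO 2) to 0.80 (without CASK KO 1), and 71 to 75 members had the higher CASK KO effect. Without CASK KO 1, 11 members had the higher CASK KO effect at an unadjusted p under 0.05, as had 453 of all 16021 genes. The SAP97 KO effect lay below the MDX effect in 72 of 75 members, where 51.9% of all genes had the higher SAP97 KO effect, with a median difference of -0.47, 1 gene called (0.0064%) and 3 members lower at an unadjusted p under 0.05 (Cox5a, Ndufb8 and Ndufs3), against 1.73% of all genes. With 1 library left out the number at that p ran from 0 (without SAP97 KO 3 or SAP97 control 3) to 20 (without MDX control 5, where 678 of all 15622 genes were lower at that p), so that it rests on single mice. Between CASK KO and MDX, 46 members had the higher and 29 the lower CASK KO effect, where 52.2% of all genes had the higher one, with a median difference of 0.09 and 12 genes called (0.0768%), no member. That direction turned with single mice, to -0.23 with 57 lower without CASK KO 2, -0.17 with 56 lower without MDX control 5 and -0.04 with 40 lower without MDX 4, and the median was 0.33 with 68 higher without CASK KO 1. Among the 6 groups as such, 279 genes were called (1.78%), again no member, and 2 members, Cox4i2 and Cox5a, were at an unadjusted p under 0.05, against 16.4% of all genes. For Cox4i2 the adjusted p of edgeR was 0.0193, and DESeq2's likelihood ratio test called it, as the only member. Cox4i2 lay at 0.247 to 1.11 CPM in the 12 libraries of the CASK and SAP97 lines, and at 1.79, 2, 1.14 and 2.56 CPM in MDX and 1.64, 1.21, 1.77, 1.7 and 2.41 CPM in MDX control. Its counts were low, from 7 read pairs in SAP97 KO 2 to 71 in MDX 5. Background strain, line and sequencing round cannot be told apart in levels among the 6 groups.

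The tissue isoforms were followed as shares of their family, in counts per kilobase, so that a common scaling of the library drops out. Over all 21 libraries the muscle forms prevailed, with Cox6a2 at 92.0 to 97.3% of Cox6a, Cox7a1 at 66.2 to 93.0% of Cox7a and Cox8b at 79.4 to 93.4% of Cox8. Cox4i1 made up 99.3 to 99.95% of Cox4i and Cox6b1 99.4 to 99.97% of Cox6b. Atp5g3 led the genes of the ATP synthase c ring at 66.3 to 87.7%, ahead of Atp5g1 at 11.4 to 33.1% and Atp5g2 at 0.408 to 1.95%. Ndufa4l2 stayed at 0.155 to 4.29% beside Ndufa4, and Cox7b2 at 0 to 0.192% beside Cox7b. Cox8c had 0 counts in every library.

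Of 24 shares tested between groups none passed, with a smallest adjusted p of 0.8 by the exact permutation test. The Cox6a2 share was 94.3, 94 and 95.1% in SAP97 KO, against 96.1, 95.3 and 95.9% in SAP97 control, without overlap, and its p of 0.1 in the 2-sided exact permutation test is the smallest that 3 against 3 mice allow. In the MDX line, Cox6a2 made up 95.4, 94.5, 94.4 and 94.2% in MDX, against 94.9, 95.3, 97.3, 95 and 96.5% in MDX control (exact permutation p = 0.0714, 2-sided). The Cox7a1 share was 76.4, 76.3 and 75.9% in CASK KO, against 70.6, 75.6 and 74.5% in CASK control, without overlap (exact permutation p = 0.1). Shares of Cox7a1 in SAP97 KO were 84, 74.7 and 77.4%, against 80.6, 79.6 and 82.9% in SAP97 control, and overlapped, although Cox7a1 had the smallest p of the members there. MDX control 3 held the highest or lowest share in the families Cox4i, Cox6a, Cox6b, Cox7a, Cox7b, Ndufa4 and Atp5g1.

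**Figure D4:**
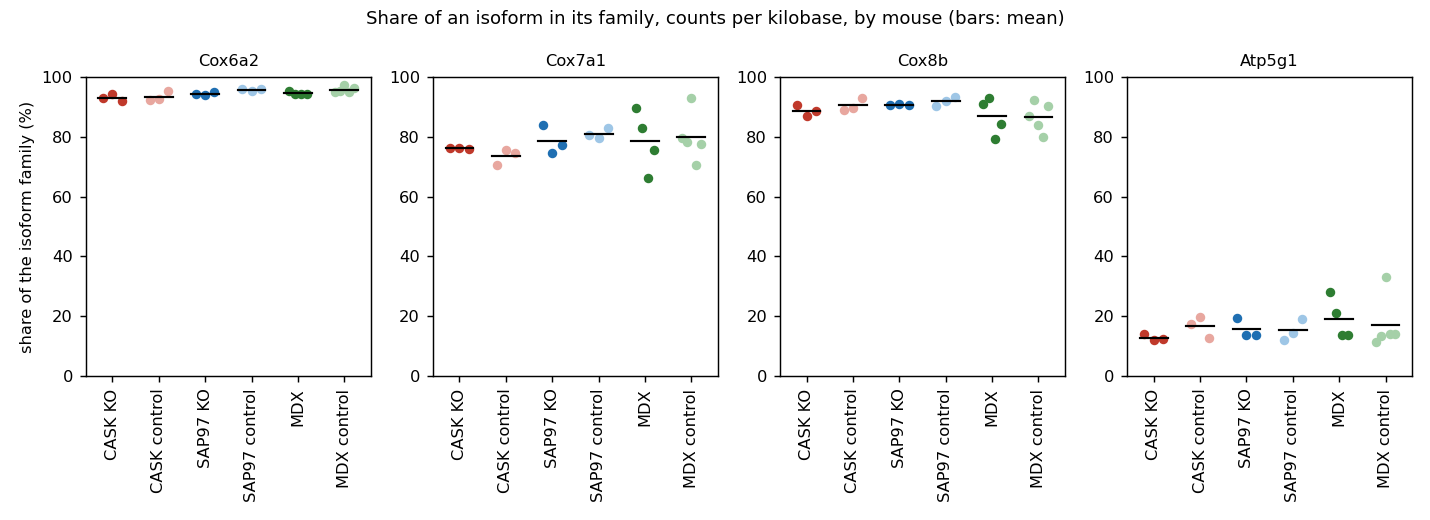
Share in percent of Cox6a2, Cox7a1, Cox8b and Atp5g1 in their isoform family, 1 point per mouse, with bars for group means and the 6 groups along each axis. Cox6a2 stays between 92.0 and 97.3% in every library, and MDX control 3 has the highest Cox7a1 (93.0%) and Atp5g1 (33.1%) shares.

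The summed level of the 77 genes was set against other RNA classes and the pairs in no exon over the 21 libraries. With the summed CPM of cytosolic ribosomal protein genes, Pearson's r was 0.88 and Spearman's rho 0.87, and r was 0.80 without the 2 libraries farthest from the median and 0.95 on deviations from the group means. With the percentage of pairs in no annotated exon, r was -0.69 and rho -0.75, and r was -0.55 without the 2 farthest libraries and -0.72 on deviations from the group means. With mitochondrially encoded messengers, r was 0.30 and rho 0.45 for their CPM, but r was -0.15 and rho 0.02 for their percentage of counts, so that the sign depended on the scale, and with nuclear long non-coding RNAs r was -0.28 and rho -0.33. These are descriptions without a test over 21 libraries that share a scaling and a total of counts, and whether RNA quality bears on the level was not tested.

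**Figure D5:**
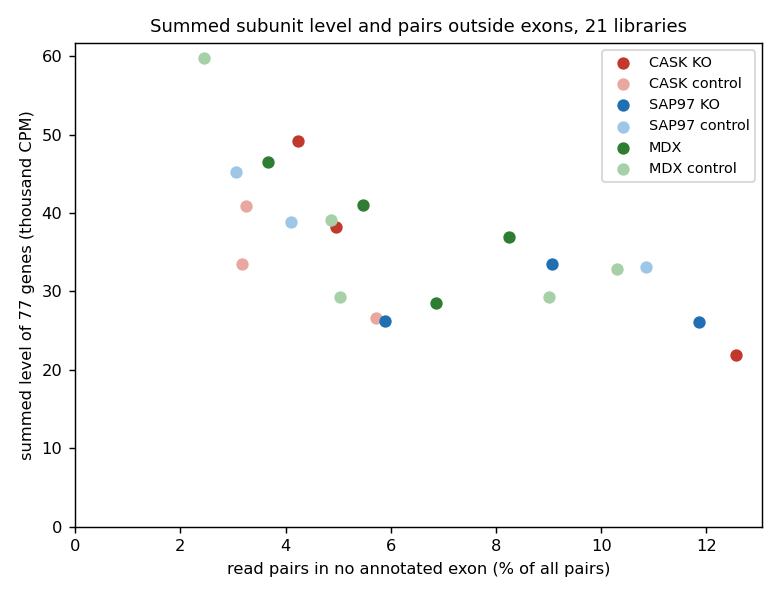
Summed level of the 77 genes (vertical axis, CPM in the unit given there) against the percentage of read pairs in no annotated exon (horizontal axis), 1 point per library, coloured by group. CASK KO 1, with 12.6% of pairs outside exons, has the lowest sum (21888 CPM), and MDX control 5, with 2.45%, the highest (59823 CPM). As a share of counts, which is not drawn, SAP97 KO 1 was lowest (2.37%) and CASK KO 2 highest (4.73%).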

How the data were processed

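Male mouse ventricular cardiomyocytes were profiled by paired-end RNA-seq. Per the labels and the study's methods, the authors removed ribosomal reads with Bowtie2 2.2.1, aligned to GRCm38 with TopHat2 2.0.13 and made the deposited counts of read pairs per gene with HTSeq 0.6.1. Strand use in counting is not given in the sources used here, so overlapping and antisense genes, and members with near-identical pseudogenes, are uncertain. The deposited normalized values, fold changes and p-values are the authors' own comparisons and were not used, nor were 5 further count columns, of which 4 hold counts that do not match their identifiers.

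The members and lists were chosen with earlier results of these data known. Counts were tested within each comparison by edgeR 4.0.16 in R 4.3.3 (filterByExpr, TMM scaling, quasi-likelihood F test, Benjamini-Hochberg over all genes tested, called at an adjusted p up to 0.01). Alternatives were DESeq2 1.42.0, RLE scaling, library totals alone, no filter, no mitochondrially encoded genes, the replicate number as a block, each library left out, and, added after the data were seen, the share of pairs in no exon as a covariate. CPM values use 1 TMM scale over the 21 libraries. A gene was stable where annotation releases changed its counts by a ratio of at most 1.1. Lengths per kilobase come from the annotation. Named genes are the 5 smallest p per comparison, the isoform families, the catalytic or cofactor subunits, the 3 highest and 3 lowest per kilobase, and the 3 smallest p of each pathway list. The values of 1 gene under this rule are not reported here, though it is counted among the members. CASK libraries of the same number deviated together (correlations 0.54, 0.30 and 0.30), a pairing seen in these data and not given by the labels. The main CASK fit is unpaired, and the fit with the number as a block is given beside it. Correlations are given without p, although a permutation test had been planned. The edgeR fits were tested on simulated counts, with genes drawn independently at a single fixed dispersion. Those counts lack the spread that genes of a library share here, so the power of these comparisons cannot be read from them. Each library is 1 mouse, and p-values measure the spread between these mice.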

Additional observations from a re-analysis of the deposited data

Results flagged for a closer look

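Libraries were compared within their group for values far from the rest, by Dixon's ratio at the 95% level (critical value 0.829 for the 4 MDX mice and 0.71 for the 5 MDX controls). This marked 16 of 120 groups of values (13.3%), and 7 of the 16 were of MDX control 3. The groups are genes, sums and shares of the same mice that move together, and some genes were named by their values in these mice. The number of marks therefore cannot be set against a rate expected by chance.

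MDX control 3 had 6405 CPM of the muscle isoform Cox6a2, against 636.5 to 1749.97 CPM in the other MDX controls, and 181.8 CPM of its ubiquitous partner Cox6a1, against 34.6 to 66.0 CPM. In the same library Ndufa4l2 lay at 14.4 CPM, against 1.79 to 3.37 CPM, and made up 4.29% of its family, against 0.246 to 0.579%. The Atp5g1 share was 33.1% there, against 11.4 to 13.9%, and the Atp5g3 share 66.3%, against 84.4 to 87.7%. Mitochondrially encoded messengers took 25.3% of its counts, against 8.70 to 10.7%.

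MDX control 5 was high for Cox7b (1649 CPM, against 398.1 to 702.9 CPM in the other MDX controls), Ndufb8 (455.5 CPM, against 157.9 to 213.9 CPM), Atp5j (393.7 CPM, against 161.9 to 209.9 CPM), Atp5l (66.9 CPM, against 16.0 to 19.2 CPM) and Ndufb2 (37.9 CPM, against 6.33 to 13.7 CPM). MDX 4, the oldest MDX mouse, was low for Cox7a1 (676.4 CPM, against 1679 to 1853 CPM in the other MDX mice), Atp5g1 (230.1 CPM, against 461.4 to 484.0 CPM), Atp5j (193.8 CPM, against 316.2 to 329.6 CPM) and the complex IV sum (4675 CPM, against 9093 to 9723 CPM). MDX control 4, the oldest MDX control, lay near MDX 4 for Cox7a1 (649.6 CPM) and the complex IV sum (4696 CPM). Whether age or the shared number bears on these values was not tested.

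Effects that differed between lines by edgeR's test of the difference numbered 52 genes for CASK KO minus SAP97 KO, 12 for CASK KO minus MDX and 1 for SAP97 KO minus MDX, and no member was among them.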

How the results depend on the processing

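No member was called in CASK KO, SAP97 KO or MDX against their controls under any alternative run. Of the values that answer a comparison, 154 were labelled the same, 37 moved, and 2, both correlations, moved further from 0. A member median counted as the same if it shifted by less than the SD between mice (0.22 to 0.49), also where it changed sign. The 345 values of single genes and isoform shares were all labelled the same. A fold change or share could be labelled otherwise only by passing its threshold in at least 1 fit, and none did. Signs did turn, as for the Cox7a1 share in MDX, -4.81 to 3.04 percentage points with 1 library left out. DESeq2 called 116 genes in CASK KO, 46 in SAP97 KO and 19 in MDX, and without a filter edgeR called 182, 134 and 6. With library totals alone 1 gene was called in CASK KO. With the replicate number as a block, 11 genes were called in CASK KO and 0 in SAP97 KO. In SAP97 KO 11 members were then lower at an unadjusted p under 0.05, as were 260 of all 14722 genes. The numbers were not taken to pair the SAP97 mice (same-number correlations -0.36 to -0.01). Nor were they for the MDX mice (-0.10, 0.09, 0.54 and 0.75 for numbers 2 to 5), since not every pair was over 0.1. MDX libraries of numbers 4 and 5 did deviate together with their controls. With the number as a block in MDX, 0 genes were called, and 47 of 77 members were higher, with a median of 0.04. At an unadjusted p under 0.05, 1 member was then higher and 1 lower, as were 277 and 223 of all 14994 genes. Leaving out 1 library gave 0 to 2 called genes in SAP97 KO. For the difference of CASK KO and SAP97 KO, 116 genes were called without a filter, 153 by DESeq2 and 20 to 73 with 1 library left out. For CASK KO and MDX these were 62, 49 and 3 to 24, for SAP97 KO and MDX 19, 13 and 1 to 2, and for the 6 groups 1009, 978 and 150 to 335. Without a filter the 6-group test also called Cox4i2, Cox5a, Cox6a2 and Ndufa4l2. The member median changed sign with 1 library left out in CASK KO (-0.15 to 0.36) and MDX (-0.11 to 0.28), and stayed negative in SAP97 KO (-0.59 to -0.30). The correlation with mitochondrially encoded messengers was 0.51 without the 2 farthest libraries and -0.15 as a share of the total, and that with nuclear long non-coding RNAs was -0.47 as a share of the total. The causes of these changes were not tested. The number of mice, 3 to 5 a group, limits the precision.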
